A study of Sus scrofa with 11 samples.

Results

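Wounds of a single diabetic minipig differed from each other, and this account describes how: it sets the 3 diabetic wounds whose library names start with L (L6, L8 and L11) against the 4 whose names start with R (R3, R5, R9 and R14), which are 7 of the 11 wounds sequenced. All 7 were full-thickness punch wounds on the back of 1 female Yucatan minipig, made diabetic with streptozotocin (a toxin of the insulin-producing cells), kept on insulin until a week before wounding and sampled on day 10. The other 4 wounds came from 1 female Yucatan minipig that was not diabetic, and they are used here only to ask whether the same letters differ in the same way there (L5 and L8 against R6 and R9). The labels do not say what the letters or the numbers stand for, and no animal is replicated. Every p-value below therefore measures the spread between wounds within an animal, not between animals. In the fits of the diabetic wounds alone that is 1 animal, and the fits over all 11 wounds pool the spread within both. A difference between the letters cannot be told apart from a difference in where the wounds lay or in how the tissue was taken.

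A healing skin wound at this stage is a mixture. Granulation tissue fills it, made of fibroblasts that secrete and cross-link collagen, new vessels and macrophages, while keratinocytes at the edge divide in their basal layer and crawl inwards before they stratify again. RNA of a whole biopsy reports the proportions of these compartments as much as their activity, so fewer cells of a type and less RNA per cell cannot be told apart.

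Levels are given as FPKM, the reads on a gene scaled by its length and by a divisor for the library. That divisor was not depth alone: it was 0.9785 to 1.1776 times the reads on genes in the L-named and 0.8661 to 0.9281 times in the R-named wounds. The 7 libraries held 28314785 to 40168372 reads on genes. A gene was tested when it reached an FPKM of 0.5 in at least 3 of the 7 wounds, which 13763 genes did, and differences are L minus R on log2(FPKM + 0.5), a scale that understates the change of low genes. Among all of these, limma called 7 genes higher in the L-named wounds (0.0509% of those tested) and 0 lower (0%), at a Benjamini-Hochberg adjusted p under 0.05 and a log2 difference over 0.5. At an unadjusted p under 0.05 there were 1496 higher (10.9%) and 1988 lower (14.4%). All L-named wounds lay above all R-named wounds for 1409 genes (10.2%) and below them for 1708 (12.4%). With every library rescaled to the same summed FPKM, the median of all genes moved from 0.01 to 0.14 and the higher share of the genes at an unadjusted p under 0.05 from 42.9% to 69.7%. These shares are the background for the counts given for each list of genes.

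Genes of cell division set the letters apart in every wound. The 7 called genes were UBE2C, NUF2, PBK, NCAPD2 and CENPN, all used by dividing cells, and the microRNA genes MIR224 and MIR421. Both microRNA genes had 0 reads in every R-named wound and passed the filter only through the L-named ones, so their calls carry no weight, and they were not tested once L11 was left out. UBE2C encodes the ubiquitin-conjugating enzyme that works with the anaphase-promoting complex to end mitosis. Its FPKM was 39.4 in L6, 37.2 in L8 and 33.3 in L11, against 14.5 in R3, 18.5 in R5, 14.9 in R9 and 15.6 in R14. No L-named wound came near an R-named one, and the difference was 2.27-fold (log2 1.18 ± 0.12 SE, limma adjusted p = 0.0347). NUF2, a kinetochore protein that holds chromosomes to the spindle, had an FPKM of 6.19 to 6.71 in the L-named wounds and 2.47 to 3.11 in the R-named. CENPN, which binds centromeric chromatin, had the largest difference of the 5 (2.49-fold, FPKM 4.28 to 5.33 against 1.29 to 1.78). The mitotic kinase PBK was 2.08-fold higher and the condensin subunit NCAPD2 1.94-fold higher, with limma adjusted p = 0.0347 for both.

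All 27 genes of the proliferation list, which joins replication licensing factors, cyclins and mitotic kinases, were higher in each L-named wound than in any R-named wound, and all 27 passed an unadjusted p under 0.05, against 10.2% and 10.9% of all genes in that direction. Their median log2 difference was 0.96, beside 0.01 for all genes tested. Only UBE2C among them passed the adjusted threshold. TOP2A, the topoisomerase that untangles replicated DNA, had an FPKM of 11.2, 14.3 and 8.26 in L6, L8 and L11 and of 3.57, 4.09, 3.96 and 4.35 in R3, R5, R9 and R14. The sliding clamp of DNA replication, PCNA, had an FPKM of 31.7 to 39.6 against 16.0 to 21.8. MCM2, a subunit of the replicative helicase, stood at 10.2 to 11 against 4.96 to 5.99. As a share of all summed FPKM the list made up 0.091%, 0.0984% and 0.0719% of L6, L8 and L11, and 0.0378% to 0.0459% of the R-named wounds. Within each letter the wounds differed far less than between them: the letters held 85.0% of the summed squares of these genes over the 7 wounds, against 26.6% for all genes tested.

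The bases before the start of the called protein genes are shown for those that hold a motif of cell-cycle promoters, the CHR element (TTTGAA or TTCGAA) or the CCAAT box, searched on both strands in the 200 bases before the annotated gene start of Sscrofa11.1 as RefSeq gives it, with matches in capitals, so that a match on the opposite strand reads TTCAAA or ATTGG.
UBE2C, chr17:48018203-48018402, plus strand: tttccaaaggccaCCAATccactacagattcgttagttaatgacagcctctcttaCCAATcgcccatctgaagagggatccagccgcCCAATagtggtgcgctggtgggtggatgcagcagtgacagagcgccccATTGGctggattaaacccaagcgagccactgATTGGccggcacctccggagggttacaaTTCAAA
CENPN, chr6:7254928-7255127, minus strand: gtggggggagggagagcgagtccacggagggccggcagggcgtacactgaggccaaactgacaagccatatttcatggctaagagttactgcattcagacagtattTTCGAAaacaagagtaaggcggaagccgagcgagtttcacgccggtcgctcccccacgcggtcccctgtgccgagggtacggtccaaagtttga
NCAPD2, chr5:64167411-64167610, minus strand: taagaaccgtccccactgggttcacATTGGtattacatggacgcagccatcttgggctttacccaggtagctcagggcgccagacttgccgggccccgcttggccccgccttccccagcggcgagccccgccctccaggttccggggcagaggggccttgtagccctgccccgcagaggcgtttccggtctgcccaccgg
UBE2C held 5 CCAAT matches and 1 CHR match. CENPN and NCAPD2 held 1 match each, and the windows of NUF2 and PBK held none of these letters. Of the 27 proliferation genes, 10 (37.0%) had at least 2 CCAAT matches and 6 (22.2%) a CHR match, where the shares among 13759 genes tested were 8.38% and 9.01%. The median GC content of the window was 56.0% in the list and 62.0% over all genes. A match describes the letters of the window and was not tested as a site.

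Both microRNA genes lie on chromosome X inside longer transcripts of the same strand, and their reads in these poly(A)-selected libraries are few. Their hairpins, from RefSeq on Sscrofa11.1 and printed as DNA, have the mature arms in capitals.
MIR224, chrX:123283427-123283507, minus strand: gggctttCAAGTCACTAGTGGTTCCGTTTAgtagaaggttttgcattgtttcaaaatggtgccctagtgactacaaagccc
MIR421, chrX:59550992-59551069, minus strand: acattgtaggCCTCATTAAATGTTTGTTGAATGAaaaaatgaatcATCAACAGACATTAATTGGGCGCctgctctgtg
The hairpin of MIR224 had 9, 20 and 7 reads in L6, L8 and L11 and 0 in each R-named wound. Against a floor of 3 reads over the R-named group, its reads pooled over the L-named wounds were at least 11.7-fold higher. That bound covers counting only and leaves out the spread between wounds. MIR421 had 8, 6 and 4 reads against 0 in each R-named wound, which is at least 5.84-fold higher by the same floor. Both genes passed the filter only through the L-named wounds, so the bounds describe these counts and do not test a difference. GABRE, the GABA receptor subunit gene that contains MIR224, did not follow it: its FPKM was 1.6, 1.72 and 8.37 in L6, L8 and L11 and 3.48 to 6.11 in the R-named wounds. The noncoding RNA around MIR421, LOC102165633, had an FPKM of 2.09 to 2.60 against 1.44 to 2.2. Reads on so short a feature can come from the surrounding precursor, and the mature microRNAs were not measured.

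**Figure D1:**
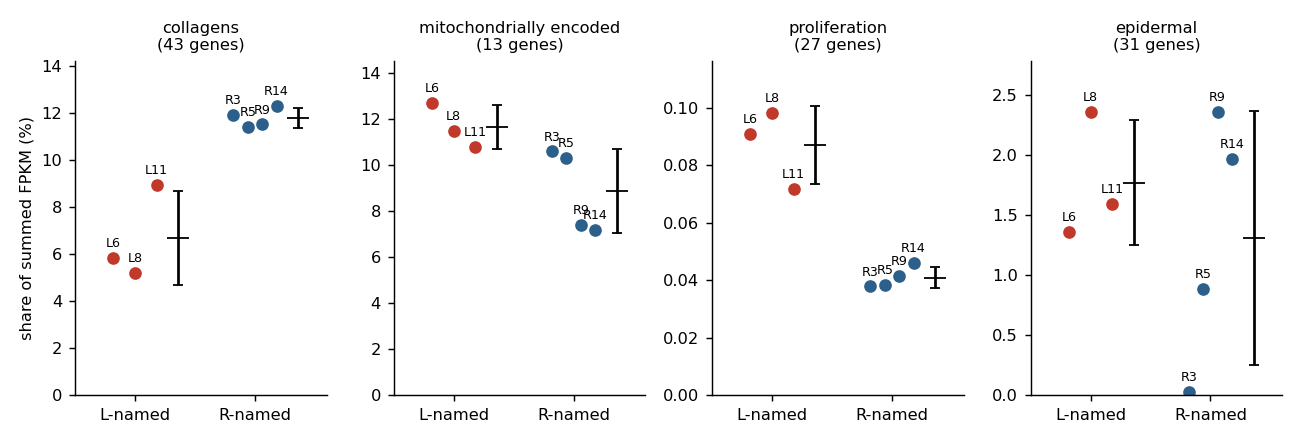
Share of the summed FPKM (%, y axis from 0) taken by the collagen, mitochondrially encoded, proliferation and epidermal lists in each diabetic wound, with L-named wounds in red, R-named wounds in blue, and the mean and SD of each letter in black. Collagens lie between 5.19% and 8.93% in the L-named and between 11.4% and 12.3% in the R-named wounds, proliferation genes show the opposite order without overlap, and the epidermal share of R3 is 0.0252%.

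Fibrillar collagen took the opposite direction. The 43 collagen genes made up 5.84%, 5.19% and 8.93% of all summed FPKM in L6, L8 and L11, and 11.9%, 11.4%, 11.5% and 12.3% in R3, R5, R9 and R14. The letters did not overlap, and the mean was 6.65% ± 2.00 (SD, n = 3) against 11.7% ± 0.423 (SD, n = 4). The exact permutation test gave a two-sided p = 0.0286, the smallest that 35 assignments allow, and 0.143 after adjustment over the 5 shares tested. COL1A1, COL1A2 and COL3A1, the chains of the main fibrils of dermis and granulation tissue, made up 86.2% to 90.0% of the collagen signal in every wound.

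COL1A1 had an FPKM of 5750 in L6, 4620 in L8 and 11500 in L11, against 17300, 19000, 16600 and 16700 in R3, R5, R9 and R14. It was 2.58-fold lower in the L-named wounds without overlap, and did not pass limma (adjusted p = 0.0927). COL3A1, which forms the thin early fibrils, ran from 7090 to 12300 against 14200 to 17500. COL5A1, a chain of the type V collagen that nucleates fibrils, ran from 338 to 701 against 950 to 1090, with the smallest p of the list (limma adjusted p = 0.0927). L11 was the highest of the L-named wounds for each of these 3 genes. Of 30 collagen genes tested, 15 were lower and 1 higher at an unadjusted p under 0.05, and 13 were lower and 1 higher without overlap, beside 12.4% and 10.2% of all genes. The 1 higher was COL23A1, a low transmembrane collagen with an FPKM of 0.618 to 0.776 against 0.262 to 0.524. COL17A1, the hemidesmosome collagen of basal keratinocytes, had 100, 96.9 and 61.7 in L6, L8 and L11 and 2.68 in R3, 67.1 in R5, 73.6 in R9 and 64.8 in R14.

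The enzymes and chaperones that modify, fold and cross-link collagen went with the chains. Of 21 tested, 13 lay lower in all L-named wounds and 1 higher, beside 12.4% and 10.2% of all genes. The median log2 difference was -0.64. P3H1, a prolyl 3-hydroxylase of the procollagen chain, had an FPKM of 72.2, 50.7 and 92.5 in the L-named wounds and 136 to 153 in the R-named (2.09-fold lower, limma adjusted p = 0.0927). SERPINH1, the collagen chaperone HSP47, ran from 457 to 736 against 842 to 1070. The exception was LOX, the lysyl oxidase that starts cross-linking, with 90.3, 66.3 and 70.0 in L6, L8 and L11 and 37.1 to 58.0 in the R-named wounds, while its relative LOXL2 ran from 136 to 266 against 322 to 491.

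Fibroblast genes lay mostly lower in the L-named wounds, with a median log2 difference of -0.67. Of 18 tested, 10 were lower and 1 higher at an unadjusted p under 0.05, beside 14.4% and 10.9% of all genes. In all L-named wounds 7 were lower and 1 higher, beside 12.4% and 10.2% of all genes. The 1 higher was the growth factor receptor PDGFRA (31.7 to 45.4 against 20.3 to 31.4). PDGFRB, the related receptor shared by pericytes, went the other way, with an FPKM of 55.4, 63.9 and 90.4 against 103 to 140. SPARC, a collagen-binding matrix protein and the most abundant gene of the list, ran from 5220 to 12000 against 14600 to 19300 (2.27-fold lower, limma adjusted p = 0.0934). PI16, a marker of adventitial fibroblasts, stood at 30.1 in L6 and 24.3 in L8 but at 116 in L11, inside the 105 to 139 of the R-named wounds. None of the collagen, collagen processing or fibroblast genes passed the adjusted threshold with all 7 wounds.

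**Figure D2:**
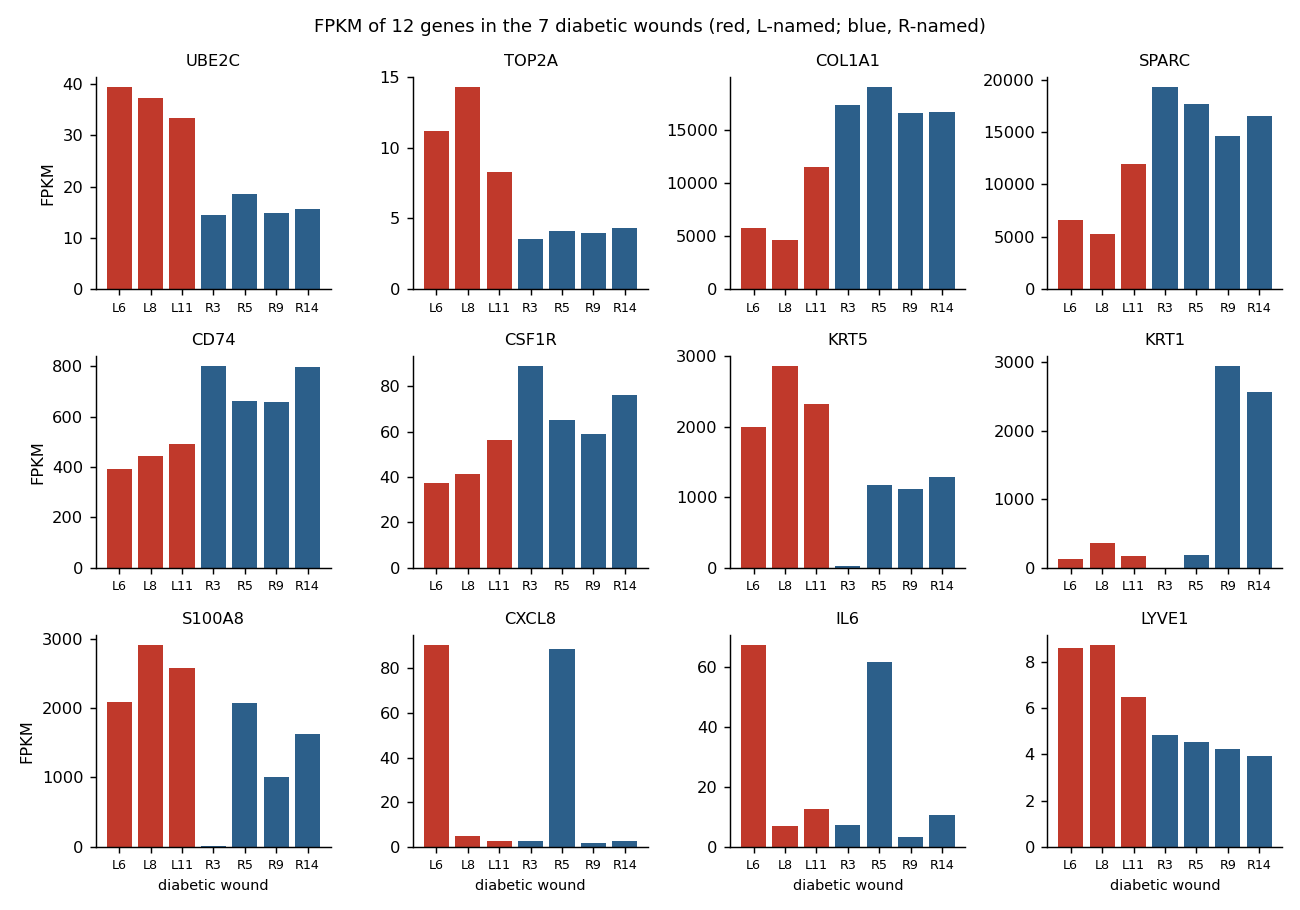
FPKM (y axes from 0) of 12 genes in each of the 7 diabetic wounds, with L-named wounds in red and R-named wounds in blue. UBE2C and TOP2A are higher and COL1A1, SPARC, CD74 and CSF1R lower in all L-named wounds, KRT1 is high in R9 and R14 only, and CXCL8 and IL6 are high in L6 and R5, 1 wound of each letter.

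The mitochondrial genome took a larger share of the L-named libraries. Its 13 protein-coding genes, all subunits of the respiratory chain and ATP synthase, made up 12.7%, 11.5% and 10.8% of the summed FPKM in L6, L8 and L11, against 10.6%, 10.3%, 7.40% and 7.19% in R3, R5, R9 and R14. The letters did not overlap, yet L11 and R3 lay next to each other, and the exact permutation test of the means (11.7% ± 0.990, SD, n = 3, against 8.88% ± 1.83, SD, n = 4) gave a two-sided p = 0.114, or 0.285 over the 5 shares. R9 and R14 stood apart from the other 5 wounds. A share also moves when another share does: with the collagens left out of the total, the values were 13.5%, 12.1% and 11.8% against 12.1%, 11.6%, 8.36% and 8.20%, so that the letters overlapped. As a share of recovered reads, not weighted by gene length, the difference was 1.51 percentage points, where FPKM gave 2.78. On the FPKM scale, 1 of the 13 genes, ATP8, a small subunit of ATP synthase, passed an unadjusted p under 0.05 (84.2, 75.6 and 68.6 against 55.6, 75.8, 38.6 and 37.5), and COX1, ND4L and ND5 did not overlap.

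Nuclear genes of oxidative phosphorylation differed less in size and more evenly. Of 64 tested, 26 were higher and 1 lower in all L-named wounds, beside 10.2% and 12.4% of all genes. Their median log2 difference was 0.21. ATP5B, the catalytic subunit of ATP synthase, had an FPKM of 258, 265 and 228 in L6, L8 and L11 and of 144 to 195 in the R-named wounds (1.43-fold, limma adjusted p = 0.0961). Glycolytic enzymes lay on the same side: PGK1 ran from 121 to 139 against 82.1 to 98.6, and HK2, the inducible hexokinase, from 6.12 to 13.8 against 0.465 to 3.86. Of the 22 hypoxia and glycolysis genes, 7 were higher without overlap and 0 lower, beside 10.2% and 12.4% of all genes. Their centred median was lowest in R3 (-0.54). Without R3 and L11 their median log2 difference fell from 0.23 to 0.07, with 13 genes higher and 9 lower.

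Leukocyte genes did not move as 1 group. The 20 pan-leukocyte genes made up 0.131%, 0.140% and 0.108% of the summed FPKM in L6, L8 and L11 and 0.153%, 0.125%, 0.113% and 0.151% in R3, R5, R9 and R14, and the letters overlapped (exact permutation p = 0.543, two-sided). PTPRC, the leukocyte phosphatase CD45, had 14.8, 17.5 and 8.96 against 11.7, 9.97, 7.33 and 12.1. ITGB2, the shared chain of the leukocyte integrins, was lower in all L-named wounds (18.8 to 25.5 against 30.8 to 42.8, limma adjusted p = 0.0927).

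Most macrophage and antigen presentation genes were lower in the L-named wounds, while the summed macrophage share was not. That share was 0.496%, 0.876% and 0.844% in L6, L8 and L11 and 0.503% to 0.671% in the R-named wounds, and LYZ was the most abundant of its genes. Of 20 macrophage genes, 12 were lower in the L-named wounds at an unadjusted p under 0.05 and 0 higher, beside 14.4% of all genes lower, and 6 were lower without overlap. CSF1R, the receptor for the growth factor that keeps macrophages alive, had an FPKM of 37.5, 41.5 and 56.2 in L6, L8 and L11 and 88.9, 65.3, 59.1 and 76.1 in R3, R5, R9 and R14. SIGLEC1, a sialic acid receptor of resident and interferon-exposed macrophages, ran from 0.928 to 1.91 against 2.26 to 2.96. CD163, the haemoglobin scavenger receptor, did not share this order, with 83.0 to 85.6 in the L-named wounds inside the 49.3 to 97.6 of the R-named. CD74, the invariant chain that escorts MHC class II molecules, had 391, 445 and 490 against 801, 662, 657 and 799 (1.65-fold lower without overlap, limma adjusted p = 0.0927). The class II chain SLA-DRA overlapped (401 to 488 against 470 to 646). Of the 10 class II genes, 6 were lower without overlap, beside 12.4% of all genes. T cell and B cell genes were spread over both letters: CD3E, a chain of the T cell receptor complex, was 11.5 in L8 and 4.08 to 6.39 in the 6 others, and CD79A, a chain of the B cell receptor, 2.5 to 5.57 against 3.52 to 5.69. NKG7, of cytotoxic granules, was lower without overlap (13.3 to 17.4 against 19.9 to 26.5). It was the only 1 of the 16 T and NK cell genes tested with that order, beside 12.4% of all genes. Higher without overlap were 0 of the 16, beside 10.2% of all genes, so neither count exceeded its background. The list as a whole leaned the other way, with 12 of the 16 differences positive and a median log2 difference of 0.27, or 0.56 without R3 and L11. That lean rested on L8, where the centred log2 median of the list was 0.89. The -0.13 of L6 and the -0.26 of L11 lay within the -0.37 to 0.05 of the R-named wounds.

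Some genes listed as neutrophil or macrophage markers were far lower in R3 than in the other 6 wounds, and others were not. S100A8, a chain of the antimicrobial protein calprotectin that keratinocytes of wounded skin also make, had an FPKM of 2080, 2910 and 2580 in L6, L8 and L11, of 2070, 997 and 1620 in R5, R9 and R14, and of 11 in R3. S100A9 had 8.96 and S100A12 17.5 in R3, beside 1290 to 3120 and 1510 to 4750 in the other 6 wounds. LYZ, lysozyme, had 38.9 in R3 and 840 to 2260 elsewhere. In the same wound CD163 was at 97.6, the highest of the 7, while the epidermal list was near 0. The neutrophil receptor gene CSF3R was at 3.70 there, next to the 3.81 of L11 and the 4.20 of R9. The neutrophil list as a whole was lowest in R3, with a centred log2 median of -0.7 beside -0.23 to 0.69 in the others. Its share of the summed FPKM was 1.89% to 2.91% in the L-named wounds, 0.924% to 1.64% in R5, R9 and R14, and 0.0217% in R3. Whether neutrophils or keratinocytes account for S100A8, S100A9, S100A12 and LYZ was not tested.

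Epidermal genes ranged widely, with R3 far below the rest. The 31 genes made up 1.36%, 2.36% and 1.59% of the summed FPKM in L6, L8 and L11 and 0.0252%, 0.886%, 2.36% and 1.97% in R3, R5, R9 and R14, which overlapped (exact permutation p = 0.514, two-sided). KRT5, the keratin of basal cells, had 1990, 2860 and 2320 in the L-named wounds, 1170, 1110 and 1280 in R5, R9 and R14, and 29.2 in R3. Of the 31 genes, 8 were higher and 0 lower in all L-named wounds, beside 10.2% and 12.4% of all genes. The 8 were KRT5, KRT6A, DSG3, DSC3, TP63, CDH1, S100A14 and TGM1. Of these, KRT5 and TP63 mark basal cells, KRT6A cells at a wound edge and TGM1, a cross-linking enzyme, the upper layers. DSG3, a desmosomal cadherin of the lower layers, had 46.0, 56.8 and 27.1 against 0.365, 17.5, 15.1 and 14. Keratins of the stratified layers had another order: KRT1 had 134, 358 and 177 in L6, L8 and L11, 187 in R5, and 2940 and 2560 in R9 and R14, and its partner KRT10 had 1960 and 1210 in R9 and R14 beside 3.47 to 224 in the other 5. KRT2, of the uppermost living layers, reached 40.8 in R9 and 3.53 in R14 and lay between 0 and 0.585 in the rest.

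Skeletal muscle was present in 1 biopsy. ACTA1, the actin of skeletal muscle fibres, had an FPKM of 957 in L11 and 0 in the 6 others, the creatine kinase CKM 168 beside 0 to 0.0998, and the myosin MYH2 26.6 beside 0. The 29 muscle genes made up 0.764% of L11 and 0.00213% to 0.00342% of the others.

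**Figure D3:**
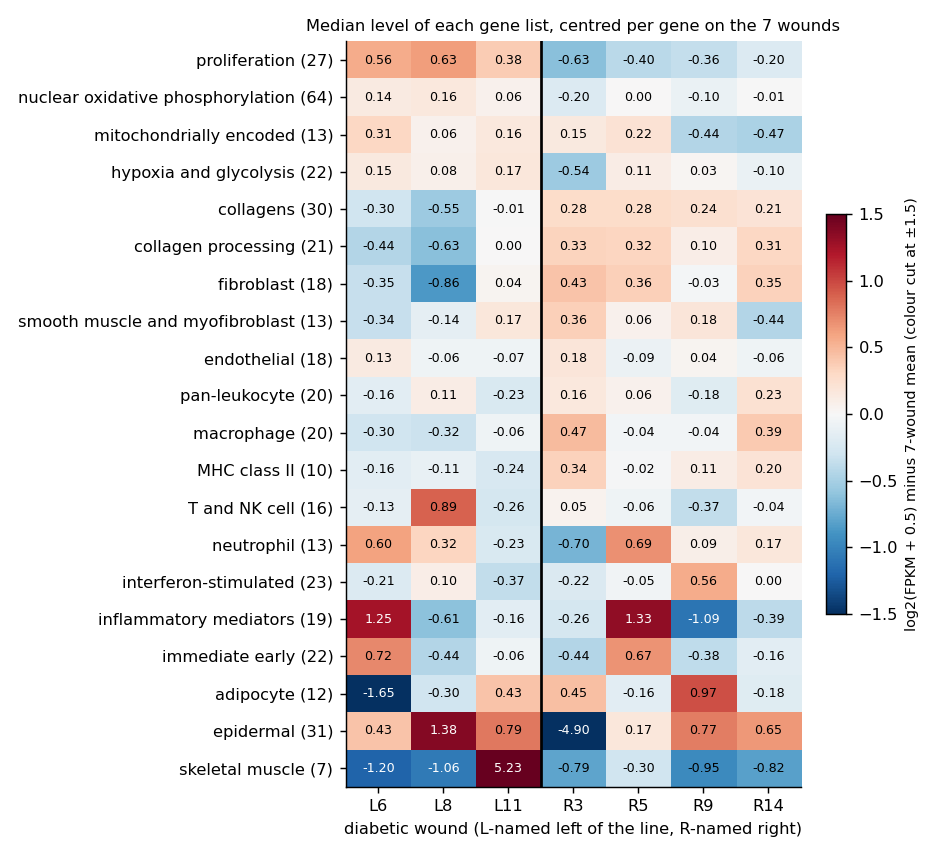
Median over the tested genes of each list (number in brackets) of log2(FPKM + 0.5), centred per gene on the mean of the 7 wounds, with L-named wounds left and R-named wounds right of the line and colours cut at 1.5. The proliferation row is above 0 in all L-named and below 0 in all R-named wounds, inflammatory mediators peak in L6 (1.25) and R5 (1.33), the epidermal row is at -4.90 in R3 and the skeletal muscle row at 5.23 in L11.

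Inflammatory signalling varied from wound to wound without regard to the letter. The mediator list made up 0.122% of the summed FPKM in L6 and 0.104% in R5, beside 0.0292% to 0.0410% in the other wounds. CCL2, the most abundant of the list, did not set these wounds apart, with an FPKM of 81.6 in L6 and 103 in R5, beside 45.9 to 87.2. CXCL8, the chemokine that draws neutrophils, had an FPKM of 90.6 in L6 and 88.6 in R5, and 1.51 to 4.79 in the other 5 wounds. IL6 had 67.5 and 61.8 in these wounds, beside 3.25 to 12.5. IL1B had 12.2 and 17.2, beside 0.320 to 0.950. PTGS2, the inducible cyclooxygenase, had 45.3 and 31.5, beside 0.390 to 8.37, and the cytokine LIF 10.8 and 12, beside 0.419 to 1.87. The 19 mediators had a median SD of 1.03 on the log2 scale over the 7 wounds, against 0.26 for all genes tested, and the letters held 7.02% of their summed squares. Immediate early genes, which answer handling and injury within minutes, peaked in the same wounds: DUSP1 had 127 in L6 and 138 in R5, beside 31.5 to 59.5. IL33, an alarmin stored in nuclei, was the 1 mediator with an unadjusted p under 0.05 (limma adjusted p = 0.123), and its letters overlapped, with 14.8, 12.8 and 9.52 against 10.3, 6.65, 6.95 and 7.65. KLF2, a transcription factor of quiescent endothelium and lymphocytes, was lower in the L-named wounds, with 15.1, 15.2 and 16.0 against 23.3 to 26.6 (1.6-fold, limma adjusted p = 0.0717).

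The first component of variation (48.6% of the variance of the tested genes) placed the L-named wounds (scores 14.6 to 36.5) above the R-named ones (-82.9 to 7.95). R3 (-82.9) was far from the other 6 wounds, which lay between -0.56 and 36.5, and the genes with the largest loadings were SPRP, the small proline-rich genes LOC110255231 and LOC100737840, KRT1 and KLK6, all of stratifying epidermis. The second (23.5%) ran from L6 (-45.4) to R9 (37.6), with KRT10, KRT1 and KRT2 among its leading genes, and the third (11.3%) from L8 (-27.9) to R5 (33.1). The letters held 26.6% of the summed squares of all tested genes, and 47.3% once R3 and L11 were left out. With fewer wounds this share rises even where nothing differs, so part of the rise is arithmetic.

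**Figure D4:**
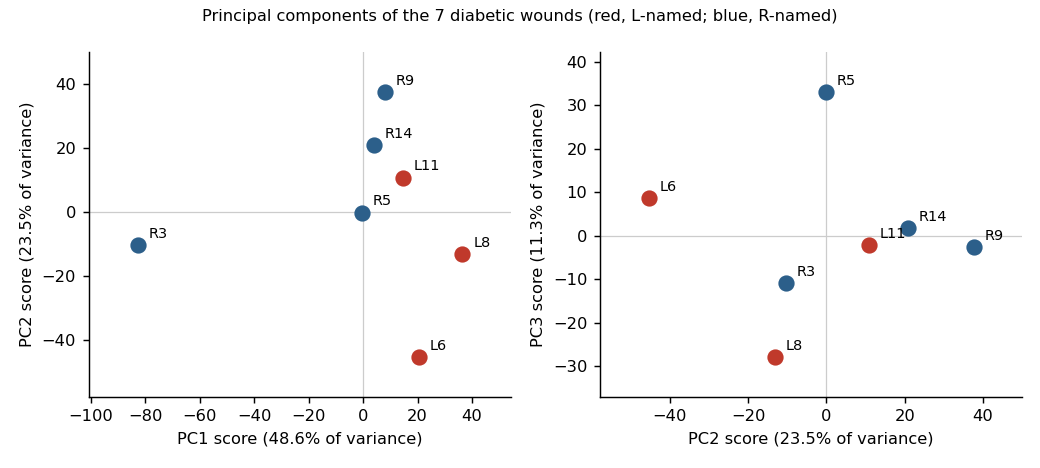
Scores of the 7 diabetic wounds on the first 3 principal components of log2(FPKM + 0.5) over 13763 genes, with the percent of variance on each axis, L-named wounds in red and R-named in blue. On the first component the L-named wounds lie above the R-named ones and R3 lies alone at -82.9, L6 and R9 are the ends of the second, and R5 and L8 are the ends of the third.

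More genes were called without R3 and L11 than with them. Without both, limma called 700 genes higher in L6 and L8 (5.24% of 13358) and 951 lower (7.12%) against R5, R9 and R14. L11 decided this: without it alone 799 were called higher (5.89%) and 1191 lower (8.78%), and without R3 alone 0 in either direction, where 2580 of 3471 genes with an unadjusted p under 0.05 in all 7 wounds kept their direction and such a p. In L11 the collagen share (8.93%) and the fibroblast share (5.05%) of the summed FPKM lay between the other L-named wounds and the R-named ones. The centred log2 median of the fibroblast list was 0.04 in L11, above the -0.03 of R9. Without R3 and L11, 25 of the 27 proliferation genes were called higher, with a median log2 difference of 0.98. Of 30 collagens, 9 were called lower and 1, COL17A1, higher. Of 21 collagen processing genes, 13 were called lower, as were 7 of 18 fibroblast genes, 3 of 20 macrophage genes and 2 of 10 class II genes. COL1A1 was then 3.38-fold lower (limma adjusted p = 0.0153), CD74 1.69-fold lower (0.0301), CSF1R 1.68-fold lower (0.0306), KRT5 2.01-fold higher (0.0302), DSG3 3.24-fold higher (0.0153) and LYVE1, the hyaluronan receptor of lymphatic endothelium and some macrophages, 1.94-fold higher (0.0175). The 6 epidermal genes called without R3 and L11 were all higher in L6 and L8. The collagen share was 6.18 percentage points lower and the mitochondrial share 3.81 points higher without these wounds, and the pan-leukocyte and epidermal shares differed by 0.00556 and 0.122 points.

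Base composition moved with the letters. Across 13761 genes the L minus R difference had a Spearman correlation of -0.42 with the GC content of the exons, a description in which the genes share the same 7 libraries. Genes with the lowest GC content (the bottom 10%, up to 40.5%) had a median log2 difference of 0.19 and those with the highest (the top 10%, from 63.7%) one of -0.25. L6 and L8 leaned to GC-poor genes (Spearman -0.42 and -0.39 of each wound's deviation), R5, R9 and R14 to GC-rich ones (0.26, 0.40 and 0.38), and L11 (0.15) and R3 (0.11) lay between. The median exon GC was 47.4% in the proliferation list and 58.4% in the collagens. With the dependence on GC removed from each library, all 27 proliferation genes kept an unadjusted p under 0.05 and the median log2 difference was 0.95. The collagen median went from -0.45 to -0.36, with 10 lower and 3 higher, and the mitochondrial median from 0.31 to 0.11, with none of the 13 at an unadjusted p under 0.05. The calls fell to 3 with all wounds: NCAPD2 and the microRNA genes MIR224 and MIR421, whose calls carry no weight. UBE2C (limma adjusted p = 0.0553), PBK (0.0595), CENPN (0.0595) and NUF2 (0.0765) no longer passed, and 0 of the 27 proliferation genes were called. Without R3 and L11 as well, 185 were called higher and 158 lower, COL1A1, UBE2C and DSG3 among them (limma adjusted p = 0.0379 for each), and CD74 was not (0.169).

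Proliferation and collagen genes had the opposite order between the letters in the non-diabetic minipig. There limma called 0 genes higher (0%) and 0 lower (0%) in its 2 L-named against 2 R-named wounds, with 666 higher (4.84%) and 587 lower (4.27%) at an unadjusted p under 0.05, in a fit over all 11 wounds. UBE2C had a log2 difference of -0.74 there and COL1A1 one of 0.79. The collagen share of that animal was 15.5% and 11% in L5 and L8, against 9.65% and 9.16% in R6 and R9, and 0 of its 27 proliferation genes had a positive difference. The difference between the 2 minipigs was itself tested, and 371 genes had a higher L minus R difference in the diabetic one (2.7%) and 533 a lower one (3.87%), 24 of the 27 proliferation genes among the former and 7 of the 30 collagens among the latter. TOP2A differed by log2 2.70 ± 0.33 (SE, limma adjusted p = 0.0192) and COL1A1 by -2.16 ± 0.46 (0.0417). GC content moved with the letters in the opposite direction there too (Spearman 0.36), L5 was the wound with little epidermis (0.0988% of summed FPKM), and after the GC correction 55 and 15 genes were called, COL1A1 not among them (limma adjusted p = 0.0657). With 1 animal of each kind, nothing here separates diabetes from the animal.

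**Figure D5:**
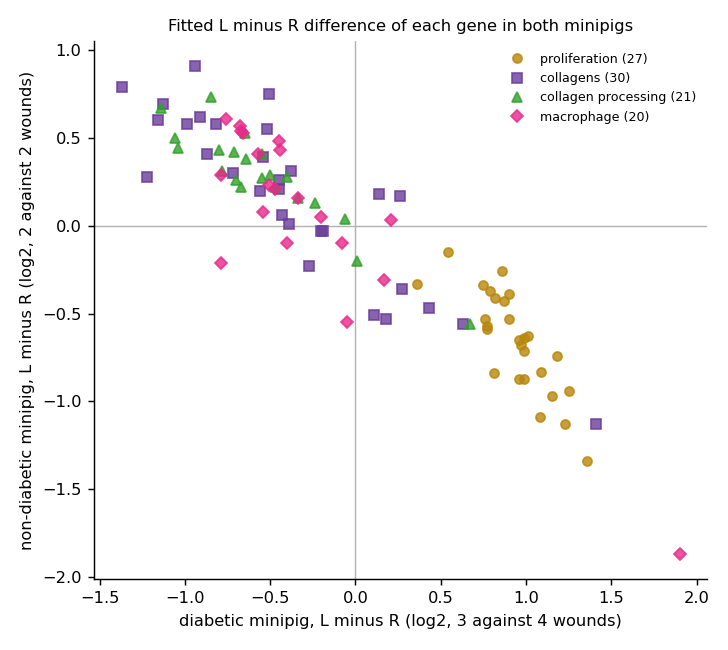
Fitted L minus R difference (log2) of each tested gene of 4 lists in the diabetic minipig (x axis, 3 against 4 wounds) and in the non-diabetic minipig (y axis, 2 against 2 wounds). All 27 proliferation genes lie right of 0 and below 0, and COL1A1 lies at -1.37 and 0.79.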

How the data were processed

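Messenger RNA of 7 diabetic and 4 non-diabetic day 10 wounds was sequenced from directional poly(A) libraries, 1 per wound. Per the submitters' processing notes, fastp, HISAT2 2.2.1, StringTie 2.2.3 and featureCounts 2.0.6 were used on Sscrofa11.1. The FPKM values were made by the authors and are used as deposited, and the strand setting of the counting is not given in the sources used here. FPKM times gene length gave whole reads for 100.0% of values under 1000 reads, within 0.05 of a read. The library divisor was 0.9785 to 1.1776 times the reads on genes in the L-named and 0.8661 to 0.9281 times in the R-named wounds, so the authors had scaled the libraries beyond depth. All 7 libraries differed from each other.

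Genes with FPKM of at least 0.5 in at least 3 of the 7 wounds were compared with limma 3.58.1 (eBayes with trend, R 4.3.3) on log2(FPKM + 0.5). Shares of summed FPKM were compared with two-sided exact permutation tests. The members and lists were chosen with earlier results of these data known. Genes were named as the 5 smallest p in each direction, the most abundant and smallest-p member of each of 26 lists, called list members, the 5 highest SDs, the 5 largest loadings on components 1 and 2, fixed markers and the mitochondrial genes. List members named beyond that rule were chosen after their values were seen, for example TOP2A, MCM2, LOX, LOXL2, PDGFRA, PI16, HK2, KRT6A, TP63, CDH1, DSC3, S100A14, TGM1, COL17A1, COL23A1, CSF1R, CSF3R, IL6, PTGS2 and LIF. KRT14 had no unique symbol in the table and is not given. Sequences came from RefSeq Sscrofa11.1, and 26 gene names stored as calendar dates were restored by identifier. Limma was tested on simulated data. Alternatives changed the pseudocount, filter, scaling, weights, wounds, covariates and model (voom run on the whole reads), and corrections for GC content, a total without collagens and a fit without R3, L11 and the non-diabetic L5 were added after seeing the data. Python 3.11.15 was used for the rest.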

Additional observations from a re-analysis of the deposited data

Results flagged for a closer look

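The contrast between the letters differed between the 2 minipigs, tested as an interaction in limma over all 11 wounds, for 371 genes in the higher and 533 in the lower direction. Among the 89 genes examined, 25 differed in this way. Of those used in cell division, the log2 difference between the contrasts was 1.92 for UBE2C, 1.59 for NUF2, 2.21 for PBK, 1.74 for CENPN, 1.40 for NCAPD2 and 1.43 for PCNA. MIR224 (3.26) and MIR421 (4.84) had 0 reads in every R-named diabetic wound, so their values depend on the pseudocount. Matrix and fibroblast genes had the opposite sign, with -2.16 for COL1A1, -1.53 for COL1A2, -1.40 for COL3A1, -1.77 for COL5A1, -1.57 for P3H1, -2.04 for SPARC and -1.22 for PDGFRB. CD74 (-1.0), NKG7 (-1.12), KLF2 (-0.94), STEAP1 (-1.16), CDC42EP3 (-1.15), LOC102163456 (-1.48) and LOC106509193 (-1.61) lay on the same side as the matrix genes. LOC106509193 passed the filter only through the R-named diabetic wounds, with 4, 6 and 5 reads in L6, L8 and L11. Its value therefore carries no weight. LYVE1 (1.78), IL33 (1.30) and PGK1 (0.76) lay on the side of the dividing-cell genes. After correction for GC content none of the 7 matrix and fibroblast genes named here passed the threshold (limma adjusted p = 0.0657 for COL1A1, 0.0643 for COL5A1 and 0.115 for PDGFRB), nor did CD74, NKG7, KLF2, IL33, PGK1, NUF2 or CENPN. Without R3, L11 and the non-diabetic L5, CD74, NKG7, CENPN and LOC106509193 did not pass.

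Single wounds also stood apart from the other 3 R-named diabetic wounds by Dixon's 95% criterion for a gap within 4 samples, for 13 of 89 genes and 4 of 26 shares. Chance meets that criterion in about 1 of 20 groups, but several of these genes were examined for their high SD or their loading on the component that R3 dominates, so their number cannot be read against that rate. R3 was the low one for FPKM of KRT5 (29.2), DSG3 (0.365), SPRP (0.233), KLK6 (0.111), the small proline-rich genes LOC110255231 (0) and LOC100737840 (0), S100A8 (11), S100A9 (8.96), S100A12 (17.5), LYZ (38.9) and CENPN (1.29). R5 was the high one for IL1B (17.2) and CXCL8 (88.6), and for the share of inflammatory mediators in the summed FPKM (0.104%). The macrophage share was high in R14 (0.671%), and the interferon-stimulated (0.084%) and melanocyte (0.00205%) shares were high in R9.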

How the results depend on the processing

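No paired analysis was possible because the L-named and R-named diabetic wounds share no replicate number. The 7 calls higher in the L-named wounds became 0 with no filter on low values, with quantile normalization, with voom on recovered reads and with the epidermal level as a covariate. They became 839 with library weights, 274 with all 11 wounds in 4 groups, 758 with the skeletal muscle level as a covariate and 700 without R3 and L11. The 0 calls lower became 1160, 326, 1117 and 951 in those 4 fits. Leaving out 1 wound gave 0 to 799 higher and 0 to 1191 lower, and the calls came from leaving out L11. Correction for GC content gave 3 higher, 185 higher and 158 lower without R3 and L11, and 359 higher and 387 lower without L11. Genes without overlap numbered 1562 to 3072 higher and 1933 to 3243 lower with 1 wound left out, 3404 higher and 3556 lower without R3 and L11, and 993 lower after rescaling to equal summed FPKM. Fewer wounds leave more genes without overlap even where nothing differs, so part of the rise with wounds left out is arithmetic. The contrast between the minipigs gave 55 and 15 calls after GC correction, and 623 higher without R3, L11 and the non-diabetic L5. As a share of recovered reads the collagens differed by -9.65 percentage points the pan-leukocyte genes by 0.00915 and the mitochondrial genes by 1.51, where FPKM gave -5.10, -0.00934 and 2.78. The cause of these changes was not tested. The direction of all 3484 genes at an unadjusted p under 0.05 was kept with other pseudocounts, scalings, weights and covariates, and 3470 kept it after GC correction. They were picked for that p in the same wounds, so a kept direction says little. Such a p was also kept by 2584 (rescaled to equal summed FPKM) to 3467 (pseudocount 1) of them in those fits. After GC correction 2037 kept it. All values rest on 1 diabetic animal, and features with few reads, such as the microRNA genes, are limited by depth.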
